A study of Homo sapiens with 4 samples.

Results

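Metallothioneins are small cysteine-rich proteins that bind zinc and copper, and their genes are switched on by the zinc-sensing transcription factor MTF1. The 7 genes described here are 5 metallothioneins (MT1E, MT1F, MT1G, MT1X and MT2A), MTF1 itself, and SLC30A1, the plasma membrane zinc exporter that MTF1 also induces. They were taken by name as a functional group, with earlier results of these data already known, and matched to the deposited Ensembl identifiers. Of the 7, 6 had a value among the 29286 genes listed, and MT1G was not analysed here.

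When free zinc or cadmium rises in a cell, MTF1 binds metal response elements in front of metallothionein genes and of SLC30A1, so that the metal is bound by protein or pumped out. Metallothionein genes also respond to glucocorticoids and to oxidative stress, and in intestinal epithelium they buffer the metals taken up from the diet. The human genes lie side by side on chromosome 16 and arose by duplication, so their mRNAs resemble each other closely.

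The libraries came from HCT116, an established human colorectal carcinoma line. Cells were infected with a lentivirus carrying a short hairpin against WDR43 (shWDR43, 2 libraries) or a control hairpin, titled shNC2 and here called shNC (2 libraries). Infection lasted 48 h and puromycin selection another 3 days in both groups, so both groups carry a lentiviral hairpin and were exposed to the drug, and the labels name 1 hairpin in each group. WDR43 acts in the nucleolus, where ribosomal RNA is made and processed, and the comparison asks how transcript levels differ after its knockdown. Whether replicates were separate cultures is not in the labels. The p-values therefore cover the spread of these libraries alone, and that spread may be technical. WDR43 itself was not analysed here, so the knockdown was not checked against its target.

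The values were read as FPKM, fragments scaled to transcript length and to library size, although no source names the unit. Their sums came to 411816 and 402393 in shWDR43 replicates 1 and 2 and to 393582 and 413758 in shNC replicates 1 and 2. The read depth behind them is unknown. In bulk RNA, fewer cells of a kind and less RNA per cell cannot be told apart. Epithelial genes were high, with EPCAM at 160 and 159 FPKM in shWDR43 and 155 and 181 FPKM in shNC. Of 12 colon epithelium genes with a value, 4 stayed below 1 FPKM in every library (KRT20, CEACAM5, VIL1 and LGR5). Of 9 markers of blood, stroma, endothelium and neuroendocrine cells with a value, 7 stayed below 1 FPKM, and their whole list summed to 8.46 and 7.09 FPKM in shWDR43 against 9.46 and 8.29 FPKM in shNC. The exceptions were COL1A1, a fibrillar collagen gene, and SYP, the synaptophysin gene.

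The coding sequences of the 4 metallothioneins measured are shown because they show how alike these genes are. They are from GENCODE release 29 (GRCh38, plus strand), 5′ to 3′ without the stop codon and with introns left out, and capitals mark the cysteine codons. Their coding spans are chr16:56608656-56609351 for MT2A, chr16:56625852-56626968 for MT1E, chr16:56658059-56659161 for MT1F and chr16:56682541-56684046 for MT1X.
MT2A: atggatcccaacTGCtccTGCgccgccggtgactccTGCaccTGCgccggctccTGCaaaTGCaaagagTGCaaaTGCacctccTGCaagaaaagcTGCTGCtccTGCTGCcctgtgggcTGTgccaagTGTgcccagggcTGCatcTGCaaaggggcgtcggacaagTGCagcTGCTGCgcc
MT1E: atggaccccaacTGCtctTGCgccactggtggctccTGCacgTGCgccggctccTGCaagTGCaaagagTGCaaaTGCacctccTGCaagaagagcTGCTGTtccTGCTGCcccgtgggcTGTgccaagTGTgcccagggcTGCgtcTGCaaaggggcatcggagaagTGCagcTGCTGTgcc
MT1X: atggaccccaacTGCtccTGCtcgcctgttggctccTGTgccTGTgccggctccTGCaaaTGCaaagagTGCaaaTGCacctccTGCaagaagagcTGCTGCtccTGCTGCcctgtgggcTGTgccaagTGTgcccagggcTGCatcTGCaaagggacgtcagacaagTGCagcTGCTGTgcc
MT1F: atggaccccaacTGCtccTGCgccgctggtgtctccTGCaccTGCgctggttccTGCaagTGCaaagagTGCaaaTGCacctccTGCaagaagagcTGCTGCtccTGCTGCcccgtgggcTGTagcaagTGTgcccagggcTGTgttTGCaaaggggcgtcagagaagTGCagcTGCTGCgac

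Each of the 4 has 61 codons, of which 20 encode cysteine, the residue that holds the metal. Over these 183 bases, identity ran from 88.5% between MT1F and MT1X to 92.3%, reached by MT1E with MT2A and by MT1X with MT2A. The whole mRNAs, which carry untranslated ends, were less alike. Of the 31-base words in the principal GENCODE transcript, 12.2% in MT2A, 15.3% in MT1E and 8.33% in MT1F also occur in a transcript of another gene. In MT1X 48.1% do, chiefly because AC026461.1, a transcript on the same strand, covers its locus (32.4% of the words). Reads from such words can be assigned to either gene where both are in the annotation used. The levels of single metallothioneins, and of MT1X most, carry that uncertainty. AC026461.1 had no value among the genes listed, so whether reads of MT1X were divided with it is unknown.

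Metal response elements in front of the genes are shown because MTF1 is one of the members. The core was searched as TGCACNC or TGCGCNC, on both strands, in the 250 bases before each RefSeq start (GRCh38.p14), which were at hand for MT2A, MT1X, SLC30A1 and MTF1. Of 35116 promoters, 24.8% held at least 1 core, 0.370% at least 4 and 0.0313% at least 7. MT2A had 7, MT1X had 4, SLC30A1 had 1 and MTF1 had 0. The 7 of MT2A lie before its RefSeq start (chr16:56608584) but inside its GENCODE gene, which starts at 56608199. The stretch upstream of MT1X (chr16:56682220-56682423, plus strand) carries its 4 cores, in capitals. From MT2A 3 of its cores are shown (plus strand), those at chr16:56608420-56608448, chr16:56608485-56608513 and chr16:56608519-56608547, and from SLC30A1 its core at chr1:211579193-211579221 (minus strand). A core read on the opposite strand ends in TGCA.
MT1X upstream: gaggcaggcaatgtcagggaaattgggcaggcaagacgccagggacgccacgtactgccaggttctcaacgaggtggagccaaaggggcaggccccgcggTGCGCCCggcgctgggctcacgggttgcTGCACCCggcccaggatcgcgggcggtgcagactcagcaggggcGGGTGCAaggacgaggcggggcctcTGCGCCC
MT2A core 153 bases before the start: gcagagccgggTGCGCCCggcccagtgcg
MT2A core 88 bases before the start: cagcgcggggcGTGTGCAggcagcgcccg
MT2A core 54 bases before the start: ggcggggctttTGCACTCgtcccggctct
SLC30A1 core 49 bases before the start: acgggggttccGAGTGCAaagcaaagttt

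These matches describe the letters only, and binding of MTF1 was not measured.

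Among the metallothioneins, MT1X rose in cells with the WDR43 hairpin, by 1.75-fold in mean FPKM. MT2A, MT1E and MT1F were 1.23-, 1.22- and 1.28-fold of the shNC mean, and none of these differences passed the test. All 6 members with a value had both shWDR43 libraries above both shNC libraries, as did 35.8% of the 13303 genes tested (21.5% had both below, and 57.3% did not overlap). With limma on log2(FPKM + 1) and a threshold of 0.05 on the p adjusted over all tested genes (Benjamini-Hochberg), 1 of the 6 rose and 0 fell. Of all tested genes 6.26% were called, 4.79% higher and 1.47% lower. All 6 passed the filter on low values.

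MT1X (chromosome 16, 56682424 to 56684196, plus strand), a metallothionein of the MT1 group, was at 99.0 and 104.6 FPKM in shWDR43 libraries, against 52.3 and 64.1 FPKM in shNC libraries. The groups were well apart, with every shWDR43 library at least 0.62 on the log2 scale above every shNC library. The log2 change was 0.80 ± 0.11 (SE, n = 2 per group; limma adjusted p = 0.0160). It ran from 0.66 to 0.95 when each library was left out in turn, and passed the test each time.

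MT2A (56608199 to 56609497, plus strand), the main metallothionein of most human cells, was by far the most abundant of the family. Its level was 901 and 902 FPKM in shWDR43 libraries, against 645 and 815 FPKM in shNC libraries. The shWDR43 libraries were nearly equal, the shNC libraries differed from each other by more than shNC replicate 2 differed from either shWDR43 library, and the groups did not overlap. The log2 difference was 0.31 ± 0.14 (SE; limma adjusted p = 0.195, unadjusted p = 0.0529), and MT2A ranked 48th and 45th by FPKM in shWDR43 replicates 1 and 2 against 64th and 58th in shNC. Without shNC replicate 2 the difference was 0.48 and passed (adjusted p = 0.00418), and without shNC replicate 1 it was 0.15 and did not (adjusted p = 0.152).

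MT1E (56625475 to 56627112, plus strand), another MT1 isoform, was at 109 and 107 FPKM in shWDR43 libraries, against 76.1 and 101 FPKM in shNC libraries. As with MT2A, shNC replicate 1 was low and shNC replicate 2 was close to the shWDR43 level. The log2 difference of 0.29 ± 0.13 did not pass (adjusted p = 0.207). It was 0.49 without shNC replicate 2 (adjusted p = 0.00414) and 0.09 without shNC replicate 1 (adjusted p = 0.351). MT1F (56657694 to 56660698, plus strand), the least abundant of the 4, was at 4.14 and 5.44 FPKM in shWDR43 libraries, against 3.84 and 3.64 FPKM in shNC libraries. Here the spread lay between the shWDR43 libraries, and the log2 difference of 0.28 ± 0.13 did not pass (adjusted p = 0.225). It was 0.44 without shWDR43 replicate 1 and 0.12 without shWDR43 replicate 2, and passed in neither fit (adjusted p = 0.227 and 0.856).

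**Figure D1:**
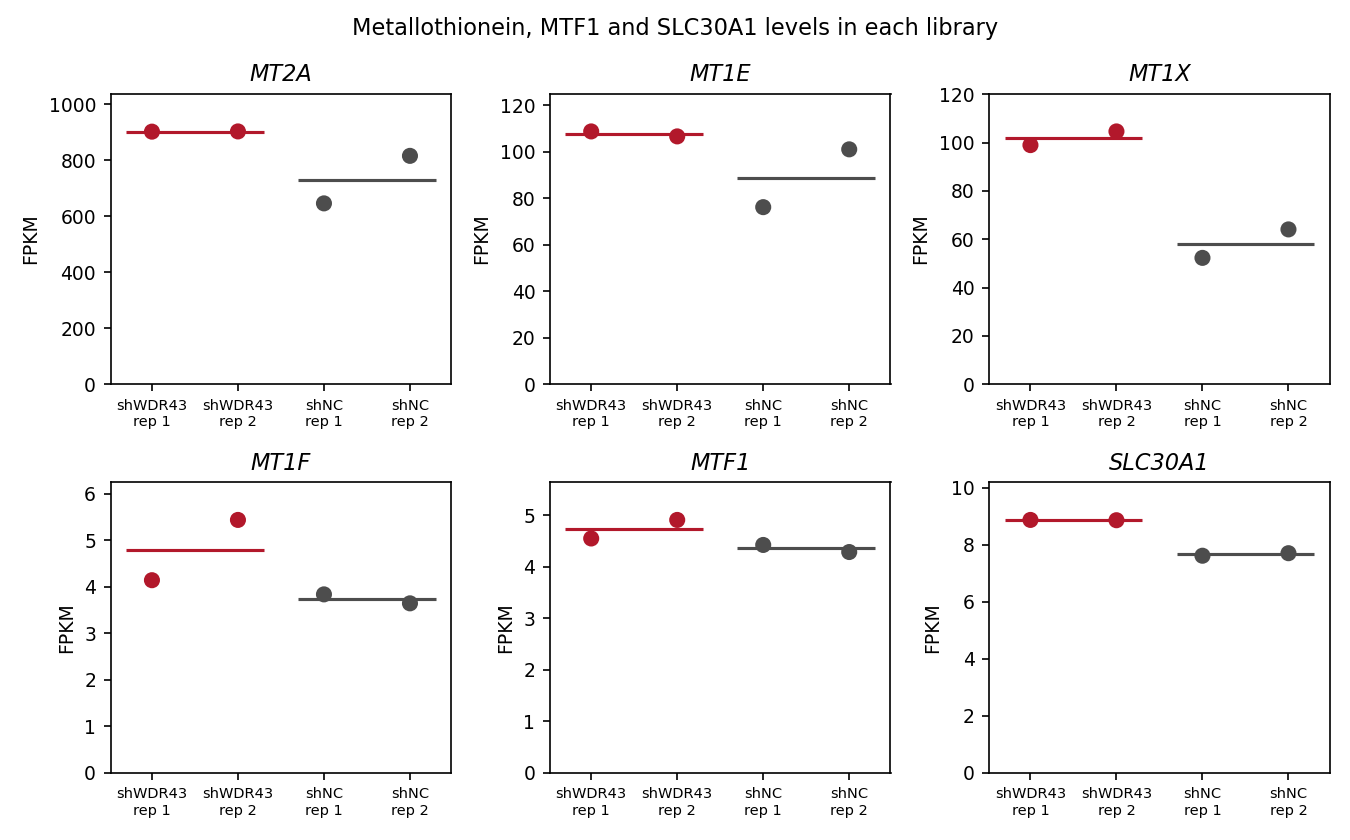
FPKM of the 6 measured members in each library, with shWDR43 in red and shNC in grey; points are libraries, horizontal lines are group means, and each panel has its own vertical scale from 0. MT1X lies at 99.0 and 104.6 FPKM in shWDR43 and at 52.3 and 64.1 FPKM in shNC, while MT2A and MT1E have a low shNC replicate 1.

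Together, the 13 metallothionein genes and pseudogenes with a value summed to 1115 and 1120.1 FPKM in shWDR43 libraries, against 782 and 986 FPKM in shNC libraries. This sum depends less than single genes do on how reads were divided among the copies, and its mean was 1.26-fold higher in shWDR43. MT2A made up 80.9% and 80.5% of it in shWDR43 and 82.5% and 82.6% in shNC. MT1X made up 8.88% and 9.34% in shWDR43 and 6.68% and 6.50% in shNC, so its share of the family was the larger in both shWDR43 libraries.

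Ratios between genes of the same library do not depend on the library's scaling. MT1X over MT2A was 0.110 and 0.116 in shWDR43, against 0.0810 and 0.0786 in shNC. MT1X over MT1E was 0.910 and 0.982 in shWDR43, against 0.687 and 0.635 in shNC. In both ratios the groups were apart by more than either group's own spread. MT1E over MT2A was 0.121 and 0.118 in shWDR43, against 0.118 and 0.124 in shNC, and the groups overlapped. A two-sided exact permutation test gave p = 0.333 for each of the MT1X ratios, the smallest value that 2 libraries against 2 allow, and p = 1 for MT1E over MT2A. With 2 libraries against 2 this test cannot pass a threshold of 0.05, and MT1X was already the called gene, so the ratios describe these libraries only.

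**Figure D2:**
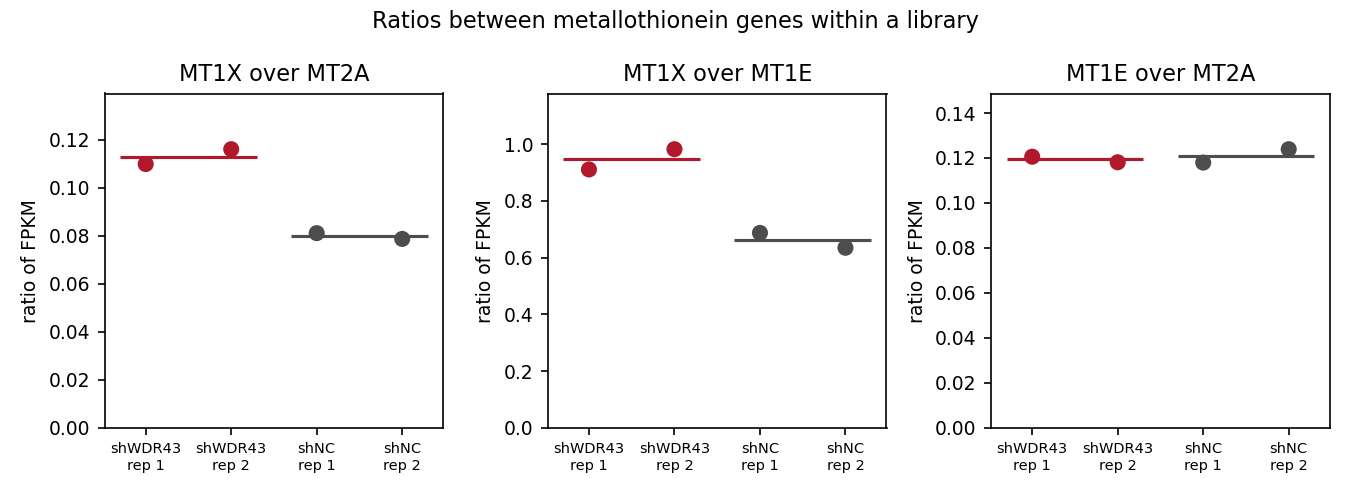
Ratio of FPKM between pairs of metallothionein genes within each library (vertical axes from 0), with shWDR43 in red and shNC in grey; points are libraries and lines are group means. The ratios with MT1X on top are higher in both shWDR43 libraries (0.110 and 0.116 against 0.0810 and 0.0786 over MT2A), and MT1E over MT2A overlaps between the groups.

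The other family members were low or listed at 0. The 3 detected in every library (MT1DP, MT1P3 and MT1XP1) were lower in both shWDR43 libraries than in both shNC libraries, as were 21.5% of all tested genes. MT1P3 and MT1XP1 were too low to be tested, so that share does not cover genes at their level. MT1A, MT1B, MT3 (the brain-enriched metallothionein) and the pseudogene MT2P1 were listed at 0 in every library. MT1L and the pseudogene MT1P1 were listed at 0 in all libraries but 1. MT1DP, a transcribed pseudogene inside the chromosome 16 cluster, was at 1.13 and 0.920 FPKM in shWDR43, against 2.70 and 1.30 FPKM in shNC. Its groups did not overlap, but shNC replicate 1 stood high, and the log2 difference of -0.53 ± 0.22 did not pass (limma adjusted p = 0.185). It was -0.87 without shNC replicate 2 (adjusted p = 0.0126) and -0.18 without shNC replicate 1 (adjusted p = 0.519).

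Of the processed pseudogenes elsewhere in the genome, MT1P3 (chromosome 20) was at 0.203 and 0.295 FPKM in shWDR43, against 1.28 and 0.876 FPKM in shNC. MT1XP1 (chromosome 1) was at 0.258 and 0.0106 FPKM in shWDR43, against 0.661 and 0.379 FPKM in shNC. In both, the shWDR43 libraries lay below the shNC libraries, and neither passed the filter of 1 FPKM in at least 2 libraries, so no test was made. MT1P3 lies on the opposite strand within MMP24OS, which had a mean of 20.3 FPKM, and no source used here states how strand was treated. Reads shared with the parents cannot be told apart from their own.

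Neither the regulator nor the exporter passed the test. MTF1 (chromosome 1, 37809567 to 37859620, minus strand), the zinc-sensing factor, was at 4.55 and 4.91 FPKM in shWDR43 libraries, against 4.43 and 4.29 FPKM in shNC libraries. The lowest shWDR43 library was only just above the highest shNC library, and the log2 difference of 0.10 ± 0.10 (SE) did not pass (limma adjusted p = 0.591). SLC30A1 (chromosome 1, 211571568 to 211578742, minus strand), the zinc exporter ZnT1, was at 8.87 and 8.86 FPKM in shWDR43 libraries, against 7.61 and 7.70 FPKM in shNC libraries. Replicates were nearly equal in both groups, so the groups were apart, at a small distance. The log2 difference of 0.19 ± 0.09 (SE) did not pass (limma adjusted p = 0.230), and the mean was 1.16-fold of the shNC mean. Neither MTF1 nor SLC30A1 passed under any of the alternatives run.

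The zinc transporter families around SLC30A1 were tested in the same fit. Of 7 tested SLC30 genes, most of which move zinc out of the cytosol, 0 rose and 0 fell, while 6.26% of all tested genes were called. A positive difference was found in 6 of the 7, and in 58.0% of all tested genes. The median log2 difference was 0.16, against 0.05 over all tested genes. The smallest p of the list was that of SLC30A7, a Golgi zinc transporter, at 6.10 and 6.94 FPKM in shWDR43 and 5.85 and 4.69 FPKM in shNC. Its log2 difference was 0.27 ± 0.13 and missed the threshold (limma adjusted p = 0.223). It was 0.40 without shNC replicate 1 (adjusted p = 0.0563) and 0.13 without shNC replicate 2 (adjusted p = 0.435).

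Of 11 tested SLC39 genes, which move zinc into the cytosol, 2 rose and 0 fell. This share of 18.2% called compares with 6.26% of all tested genes, and the median log2 difference was 0.07. SLC39A8 (ZIP8), a plasma membrane importer of zinc and manganese, was at 9.38 and 10.1 FPKM in shWDR43, against 6.41 and 6.95 FPKM in shNC. SLC39A7 (ZIP7), which releases zinc from the endoplasmic reticulum, was at 52.6 and 53.1 FPKM in shWDR43, against 36.6 and 41.0 FPKM in shNC. In both genes the groups were apart, with log2 changes of 0.49 ± 0.10 and 0.44 ± 0.09 (SE; limma adjusted p = 0.0347 and 0.0343). Both calls were lost under median-ratio scaling (adjusted p = 0.0517 and 0.0617), under upper-quartile scaling, and without shWDR43 replicate 1 or shWDR43 replicate 2. SLC39A7 overlaps RXRB on the opposite strand by 244 bases, so its level is uncertain.

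Metallothioneins also bind copper. Of 14 tested genes of copper handling, 2 rose and 0 fell, a share of 14.3% called against 6.26% of all tested genes. The median log2 difference was 0.19. ATOX1, the chaperone that hands copper to the Golgi pumps, was at 9.87 and 9.56 FPKM in shWDR43, against 5.97 and 5.08 FPKM in shNC. Its log2 change was 0.72 ± 0.11 (SE; limma adjusted p = 0.0195), and it overlaps G3BP1 on the opposite strand by 1488 bases. The call was lost without a filter on low values. COMMD1, a copper homeostasis gene, was at 4.51 and 3.85 FPKM in shWDR43, against 2.68 and 2.38 FPKM in shNC. Its log2 change was 0.55 ± 0.12 (adjusted p = 0.0431). It overlaps CCT4, which had a mean of 93.3 FPKM, on the opposite strand by 81 bases. The COMMD1 call was lost without shWDR43 replicate 1 (adjusted p = 0.248) and under both scalings. Without shNC replicate 2, 4 genes of this list rose.

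**Figure D3:**
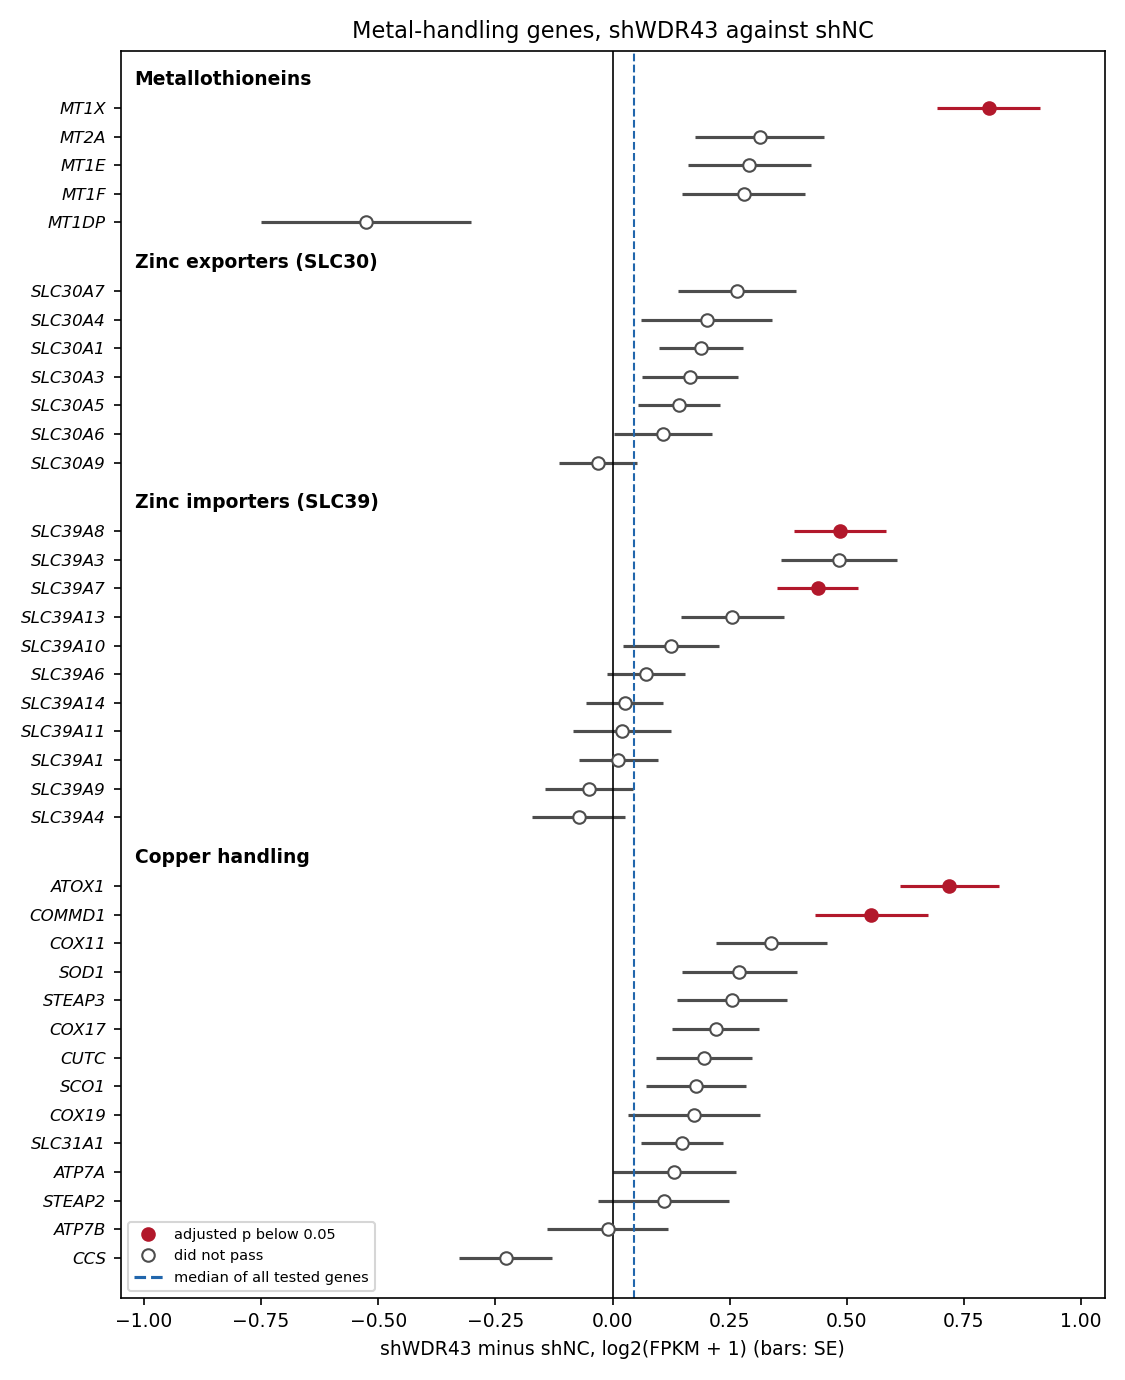
Difference between shWDR43 and shNC on the log2(FPKM + 1) scale for the tested genes of 4 lists; points are limma estimates, bars are SE (2 libraries per group), filled red points had an adjusted p below 0.05, and the dashed line is the median of all tested genes (0.05). MT1X (0.80), ATOX1 (0.72), COMMD1 (0.55), SLC39A8 (0.49) and SLC39A7 (0.44) passed, and no SLC30 gene did.

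Of 15 tested genes listed for the response to metal or oxidative stress, 0 rose and 1 fell. This share of 6.67% called is close to the 6.26% of all tested genes. Not every gene listed need be induced by metal, and SLC39A10 is also counted among the SLC39 genes. The median log2 difference was 0.09, and 10 of the 15 differences were positive, against 58.0% of all tested genes. The next genes were named after their values were seen, and none passed. HMOX1, the heme oxygenase gene, was at 0.42 ± 0.14 (limma adjusted p = 0.112) and TXNRD1, a thioredoxin reductase gene, at 0.35 ± 0.09 (adjusted p = 0.0566). The heat-shock genes HSPA8, HSPA1B and HSPH1 were at -0.16, -0.13 and -0.13, with both shWDR43 libraries below both shNC libraries. HSPA1A and DNAJB1 were at 0.06 and 0.03, and their groups overlapped. The member that fell was SLC7A11, the cystine transporter gene, at 1.88 and 2.25 FPKM in shWDR43, against 7.31 and 6.16 FPKM in shNC. It is also a target of the amino-acid response factor ATF4, and its log2 change was -1.33 ± 0.13 (SE; limma adjusted p = 0.00513). Without shNC replicate 1, 1 member of this list rose and 1 fell, and without shNC replicate 2, 5 rose and 1 fell.

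Glucocorticoid-inducible genes went both ways. Of 11 tested, 3 rose and 1 fell, a share of 36.4% called against 6.26% of all tested genes. A positive difference was found in 7 of the 11, among them NR3C1, the gene of the receptor itself (0.26). TSC22D3 (-0.51, limma adjusted p = 0.0587) and FKBP5 (-0.06, adjusted p = 0.662), named after their values were seen, did not pass. The list was chosen with earlier results of these data known, and its median log2 difference was 0.11. DUSP1, a MAP kinase phosphatase gene, was at 17.8 and 19.3 FPKM in shWDR43, against 10.6 and 11.1 FPKM in shNC (log2 change 0.71; limma adjusted p = 0.0131). TFCP2L1, an epithelial transcription factor gene, and SGK1, a kinase gene induced by corticosteroids, had log2 changes of 0.51 and 0.59 (adjusted p = 0.0395 and 0.0475). SGK1 was low, at 2.19 and 2.40 FPKM in shWDR43, against 1.08 and 1.31 FPKM in shNC. TFCP2L1 was at 3.82 and 3.79 FPKM in shWDR43, against 2.43 and 2.30 FPKM in shNC. Both calls were lost under both scalings, with the replicate block and without a filter on low values. The SGK1 call was also lost with robust settings off. PER1, a circadian clock gene, was at 62.1 and 60.5 FPKM in shWDR43, against 90.0 and 83.1 FPKM in shNC (log2 change -0.49, adjusted p = 0.0263). Under median-ratio and upper-quartile scaling, where 3.38% and 2.83% of all tested genes were called, 1 of the list rose and 1 fell each time. With shWDR43 replicate 1 left out, 1 rose and 0 fell, and with shWDR43 replicate 2 left out the counts were 1 higher and 1 lower.

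The low MT2A, MT1E and MT1X levels of shNC replicate 1 stood beside a difference between the shNC libraries that followed transcript length. Among 286 tested protein-coding genes whose longest annotated transcript was under 1000 bases, the median of shNC replicate 1 minus shNC replicate 2 was -0.22 on the log2 scale, and among 984 genes of 8000 bases or more it was 0.20. Between the shWDR43 replicates the same medians were 0.09 and -0.06. The difference of replicate 1 from replicate 2 in shNC was -0.34 for MT2A, -0.40 for MT1E and -0.29 for MT1X. It was -0.01 for SLC30A1 and 0.04 for MTF1, which have long mRNAs. MT1F and MT1DP, with longest transcripts of 1573 and 191 bases, went the other way, at 0.06 and 0.69. MT2A and MT1E have longest transcripts of 903 and 729 bases, in the shortest class. The longest transcript of MT1X has 1727 bases and falls in the next class, while its principal transcript has only 450, so its length correction may not be that of its main mRNA. Between groups, the median difference was 0.15 in the class under 1000 bases, 0.12 in the next class and -0.000442 in the longest class. With the trend on length taken out of each library, an alternative added after the data were seen, the log2 difference was 0.76 for MT1X (limma adjusted p = 0.00684), 0.32 for MT2A (adjusted p = 0.0890) and 0.34 for MT1E (adjusted p = 0.109). In that fit the log2 difference was 0.24 for MT1F (limma adjusted p = 0.299) and -0.29 for MT1DP (adjusted p = 0.295). The part of the length trend in the MT2A and MT1E differences was not otherwise tested.

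**Figure D4:**
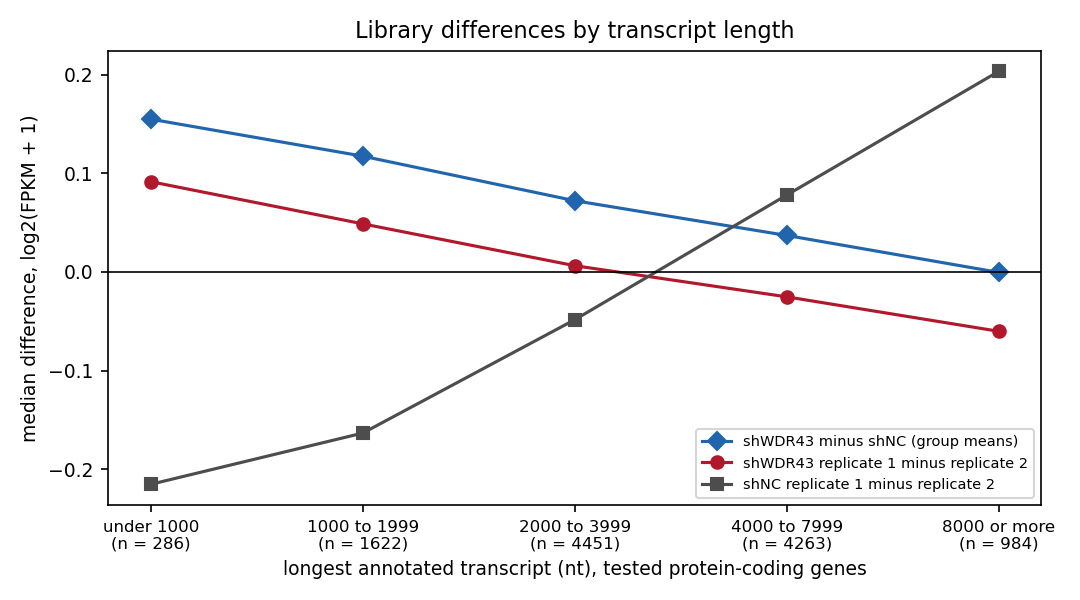
Median difference on the log2(FPKM + 1) scale by class of longest annotated transcript, over tested protein-coding genes; diamonds are shWDR43 minus shNC, circles and squares are replicate 1 minus replicate 2 of shWDR43 and of shNC. The shNC line goes from -0.22 in transcripts under 1000 bases to 0.20 in those of 8000 bases or more.

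Across the 13 alternatives MT1X kept its direction, with log2 differences from 0.66 to 0.95, and it passed the test in 12. The exception was the fit without a filter on low values (adjusted p = 0.104), in which 17 of 26938 genes were called. MT2A and MT1E also kept their direction in all 13, and each passed in 1, the fit without shNC replicate 2. The share of all tested genes called differed widely between these fits. It was 2.94% when shWDR43 replicate 1 was left out and 3.47% when shWDR43 replicate 2 was. Leaving out shNC replicate 1 gave 13.2%, and leaving out shNC replicate 2 gave 19.6%. It was 3.38% with median-ratio scaling, 2.83% with upper-quartile scaling, 4.23% with the replicate block, 14.7% with the crossed block and 11.9% with the length trend removed. It was 6.08% with a pseudocount of 0.1, 0.0631% without a filter, 12.2% with a filter at 5 FPKM and 5.49% with robust settings off.

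**Figure D5:**
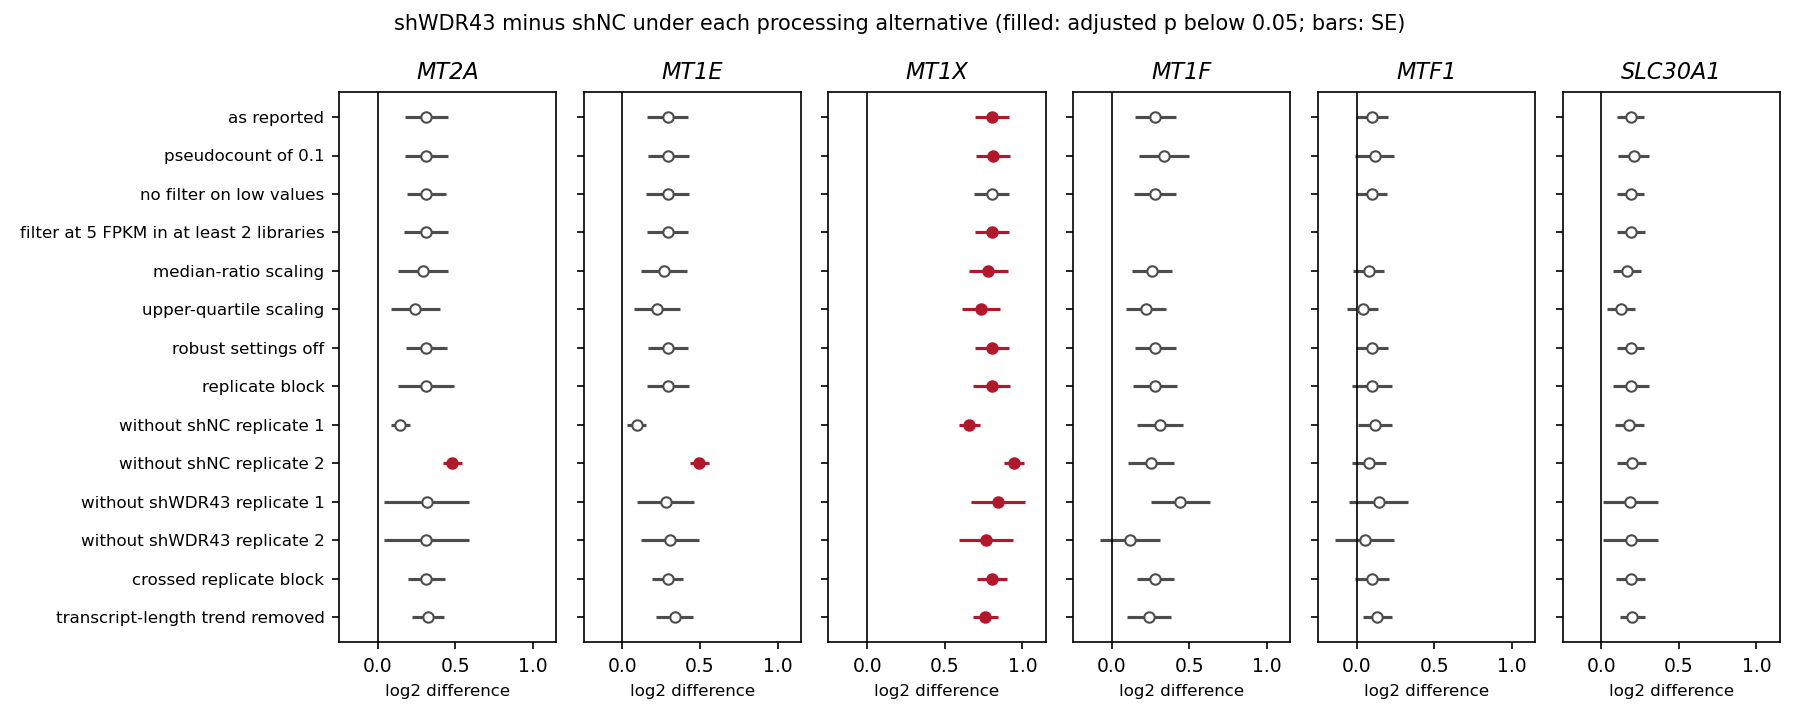
Difference between shWDR43 and shNC on the log2 scale for each measured member (columns) under the reported fit and each alternative (lines); bars are SE and filled red points had an adjusted p below 0.05. MT1X is filled everywhere except without a filter on low values, MT2A and MT1E are filled without shNC replicate 2, and MT1F, MTF1 and SLC30A1 are open wherever drawn (MT1F and MTF1 fall below the 5 FPKM filter).

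The profile of the 4 measured metallothioneins, averaged after centring each gene over the 4 libraries, was 0.16 and 0.26 in shWDR43 replicates 1 and 2 and -0.33 and -0.09 in shNC replicates 1 and 2 on the log2 scale. The tested genes outside the lists with the smallest Euclidean distance to it were STEAP1, YWHAH, SNHG12, GINS2 and TAP1, at distances of 0.0276 to 0.0442. STEAP1, a metalloreductase family gene, was the nearest, at 6.03 and 6.40 FPKM in shWDR43 and 3.91 and 4.73 FPKM in shNC. In the reported fit none of the 5 passed the test (limma adjusted p from 0.0520 to 0.0657). All 5 passed with the 5 FPKM filter, with the crossed block and with the length trend removed. They were picked for a profile that is higher in shWDR43, so a test on the same libraries adds no support. STEAP1 also reached 5 FPKM only in its shWDR43 libraries. With 4 libraries, likeness of profile is a description of these values only.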

How the data were processed

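Gene-level values of 4 HCT116 libraries were used as deposited. The submitters' processing notes list HISAT2, RSEM, edgeR, Trimmomatic, FastQC, CASAVA 1.8 and GRCh38, with no role or order. The authors' deposited values were read as FPKM, inferred from the values. The annotation, strand setting and read depth were not given in the sources used here. In each file 1 blank row was left out, and 29170 of 29286 identifiers had a symbol.

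limma 3.58.1 in R 4.3.3 was run on log2(FPKM + 1) for the 13303 genes that reached 1 FPKM in 2 or more libraries, with group as the only term, trend and robust moderation, two-sided tests and Benjamini-Hochberg adjustment at 0.05. This scale understates changes of low genes. Of these genes 637 rose and 196 fell, or 194 and 182 after upper-quartile scaling. In 10 simulations of 13303 genes, noise followed the variances that the fit itself estimated, alike in all libraries, and a small set of genes was changed. Recovery was 49.8% at a 1.5-fold change and 96.1% at a 2-fold change, and 4.45% of the calls were false. The simulations held no length trend and no unequal spread between groups, so these values do not give the error rate of the real calls.

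The members and 8 gene lists were chosen with earlier results of these data known. The text names all members, listed metallothioneins with a value, up to 4 called genes per other list (or the 2 with the smallest p), and the 5 genes nearest in profile. Some further genes of the lists were named after their values were seen. Alternatives were a pseudocount of 0.1, no filter or 5 FPKM, median-ratio or upper-quartile scaling, a fit without robust settings, one with a replicate block, and fits lacking 1 library each; a crossed block and removal of a length trend (lowess, span 0.3) were added after the data were seen. Of 8 colon epithelium genes tested, 2 were called (CLDN4 and KRT8, both higher), a share of 25.0% against 6.26% of all tested genes. Of 2 other-cell markers tested, 0 were called. Coordinates are from GENCODE release 29, promoters from RefSeq. Python 3.11.15 and pandas 2.3.3 served for the tables.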

Additional observations from a re-analysis of the deposited data

How the results depend on the processing

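Of the 6 measured members, MT1E (log2 difference 0.0908 to 0.49 over the fits that leave out 1 library), MT2A (0.15 to 0.48) and MT1X (0.66 to 0.95) kept their direction, and MT1F, MTF1 and SLC30A1 stayed short of the threshold in every fit they entered (MT1F and MTF1 fall below the 5 FPKM filter). With 1 library left out, the spread comes from the intact group and is taken to hold for both. The MT1X difference did not pass without a filter on low values (0.80, adjusted p = 0.104). The summed metallothionein ratio ran from 1.13 to 1.43 when a library was left out. The number of changed genes was 833, and 17 without a filter, 450 after median-ratio scaling, 376 after upper-quartile scaling, 1578 with the length trend removed, and 391 to 2610 when a library was left out. Changed members numbered 0 without a filter in the metallothionein, SLC39, copper, metal-stress, glucocorticoid and colon epithelium lists. With a library left out the counts ran from 1 to 4 (metallothionein), 0 to 2 (SLC39), 1 to 4 (copper), 1 to 6 (metal-stress), 1 to 4 (glucocorticoid) and 1 to 3 (colon epithelium). Median-ratio and upper-quartile scaling gave 0 and 0 for SLC39, 1 and 1 for copper, 2 and 2 for glucocorticoid and 1 and 0 for colon epithelium genes. At 5 FPKM 1 copper gene and 2 metal-stress genes were called, and 2 metal-stress genes with the length trend removed. SYP was -0.09 with all libraries, 0.00739 without shNC replicate 1 and -0.19 without shNC replicate 2. The cause of these changes between fits was not tested. Fewer genes enter the fit at 5 FPKM, and fewer libraries where 1 is left out. The read depth is unknown, so what it limits could not be stated.

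The labels give both groups replicates 1 and 2, which share only a number. Deviations of same-numbered libraries correlated at -0.15 over 13303 genes. The replicate block left 563 changed genes, 1 SLC39 gene and 1 colon epithelium gene, and kept MT1X (adjusted p = 0.00764). The crossed pairing gave 1954 changed genes and 3 metal-stress genes.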

Other observations

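The neighbours of the metallothionein cluster were looked at because the measured metallothioneins sit together on chromosome 16 (56565049 to 56684196 for the whole cluster). Within 500 kb on either side, 11 genes outside the family were tested, of which 0 rose and 2 fell (limma, adjusted p below 0.05). Of all tested genes, 4.79% rose and 1.47% fell. The median log2 difference of the 11 was 0.08. HERPUD1, an endoplasmic reticulum stress gene, was at 78.4 and 85.7 FPKM in shWDR43 libraries, against 143 and 144 FPKM in shNC libraries. Its log2 change was -0.80 ± 0.09 (SE; adjusted p = 0.00919), and the other that fell, ENSG00000261270, lies inside HERPUD1 on the same strand, so its reads cannot be told apart from those of its host.

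NUP93, a nuclear pore gene and the first tested gene beyond MT1X, was at 12.7 and 12.3 FPKM in shWDR43 and 9.73 and 10.1 FPKM in shNC (log2 difference 0.31, adjusted p = 0.0780). On the other side BBS2, a ciliary trafficking gene, was at 13.9 and 13.9 FPKM in shWDR43 and 11.6 and 13.1 FPKM in shNC (0.16, adjusted p = 0.318). Neither passed the test.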
